A study of Mus musculus with 4 samples.

Results

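Plasmacytoid dendritic cells (pDCs) were described among the CD45-selected cells of mouse subcutaneous tumours, with and without intratumoral interleukin 27 (IL-27). The members were chosen by their measured transcript counts. A cell was taken as a pDC when it held at least 1 unique molecular identifier (UMI, 1 counted transcript molecule) of Siglech and a UMI of at least 1 of the 5 partner genes Ccr9, Klk1, Cox6a2, Spib and Tcf4. It also had to stay within limits of 2 UMIs of C1q genes, 4 of S100a8 and S100a9, 0 of Cd3 genes and 1 of Krt8 and Krt18, which mark macrophages, neutrophils, T cells and epithelial cells. The rule found 60 pDCs among 20607 cells kept, 33 of 9990 in the IL-27 matrix and 27 of 10617 in the control matrix. Levels of the genes in the rule are given as a description.

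The tumours grew from 1000000 cells of the mouse ovarian cancer line OV2944-HM1, placed under the skin of B6C3F1 mice (an F1 hybrid) aged 6 to 8 weeks. IL-27 mice received 100 ng of recombinant mouse IL-27 in the tumour when the cells were implanted and again every other day, and control mice received vehicle. On day 14 the tumours were dissociated, CD45-positive cells were taken with magnetic beads, and a droplet kit read the 5′ ends of their transcripts. Although 2 entries are listed for a group, its cells lie in 1 matrix that does not say which entry a cell came from. Each group is therefore 1 sample, and no difference between the groups was tested. The 95% intervals below cover counting error only, not the spread between tumours. Those of gene and list ratios treat each UMI as independent, so they also leave out the spread between cells.

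Cells were kept with at least 200 genes and 500 UMIs and with mitochondrial UMIs below 10%, which left 9990 of 10183 IL-27 and 10617 of 10784 control barcodes. Their median depth was 1870.5 UMIs with IL-27 and 2408 in the control. The pDCs were deeper, with a median of 9063 UMIs (754 to 16555) with IL-27 and 8447 (2558 to 21879) in the control, and held 300695 and 236807 UMIs in all. Their median mitochondrial share was 2.85% with IL-27 and 1.94% in the control, and that of all cells kept was 0.606% and 0.356%. The mitochondrial share differed the same way in pDCs and in all cells, and its part in the results below was not tested. The matrices shared 133 barcodes, which 2 IL-27 pDCs and 1 control pDC carried.

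Plasmacytoid dendritic cells are best known for releasing large amounts of type I interferon when the endosomal receptors Tlr7 and Tlr9 meet nucleic acid. The E-protein factor Tcf4 (E2-2) holds their identity against Id2, the inhibitor that conventional dendritic cells use. They have a well-developed secretory apparatus and transcribe some genes of lymphocytes, and in tumours they are often described as weak interferon producers. IL-27 signals through Il27ra and Il6st, with Stat3 among the factors it activates.

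Siglech, a sialic acid-binding lectin of mouse pDCs, was counted at 1 to 34 UMIs per cell (median 14) with IL-27 and at 2 to 30 (median 15) in the control. All 5 partner genes were seen in 22 of 33 IL-27 and 14 of 27 control pDCs. Of 12 further pDC markers outside the rule, at least 6 were seen in 26 of 33 IL-27 and 21 of 27 control cells. These 12 markers summed to 3392 CPM in IL-27 and 3649 CPM in control pDCs, against 545 and 585 CPM in other dendritic cells. The label thus fits most members, and those it fits less well are described below. In cells thinned to 1000 UMIs, which left out 1 IL-27 and 0 control pDCs, Siglech was seen in 84.4% of IL-27 and 81.5% of control pDCs. Neutrophils, which should lack it, showed it in 0.0724% and 0% after the same thinning, with median depths before it of 1973.5 and 2601.5 UMIs. The IL-27 value comes from the left-out cell with 15 Siglech UMIs described in the next paragraph. Since Siglech chose the pDCs, this contrast was set by the rule. Scrublet called none of the pDCs a doublet, but it called 0 cells in the whole control matrix and so had not worked there. Of the pDCs, 6 with IL-27 and 1 in the control had a score among the highest 8% of their matrix.

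At the edge of the rule, 2 cells with Siglech were left out in each matrix. With IL-27, one had 1 Siglech UMI and no partner gene, and the other had 15 Siglech UMIs beside 42 of S100a8 and S100a9. In the control, one had 11 Siglech UMIs beside 87 of Cd3 genes, and the other 29 beside 259 of S100a8 and S100a9. Just inside stood 3 members per matrix with 1 or 2 Siglech UMIs. Among cells within the limits, none without Siglech had 3 or more partner genes, but 14 IL-27 and 13 control cells had at least 2.

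Several members stood apart. Of the 3 control cells with 2 Siglech UMIs, 2 had only 2 and 1 of the 12 further markers, and these held 102 and 18 of the 125 control UMIs of Ifitm1 and 16 and 20 of the 41 of Ms4a6c, a gene of monocytes and macrophages. The third had none of either gene, with 5 further markers and all 5 partner genes. Of the 3 IL-27 cells with 1 or 2 Siglech UMIs, 2 held 13 and 11 of the 50 IL-27 UMIs of Ms4a6c and the other none. The IL-27 cell with most Ms4a6c had 14, beside 11 Siglech UMIs and all 5 partner genes. The deepest control pDC, with 21 Siglech UMIs, also had 81 of Gzma, 28 of Nkg7 and 16 of Prf1, genes of natural killer (NK) cells, and 228 of cell cycle genes. Results are given where needed without the 6 members with at most 2 Siglech UMIs and the one with NK genes, called below the members set apart. That setting, chosen after seeing the data, also removes cells that look like pDCs and keeps the IL-27 cell with 14 Ms4a6c UMIs.

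**Figure D1:**
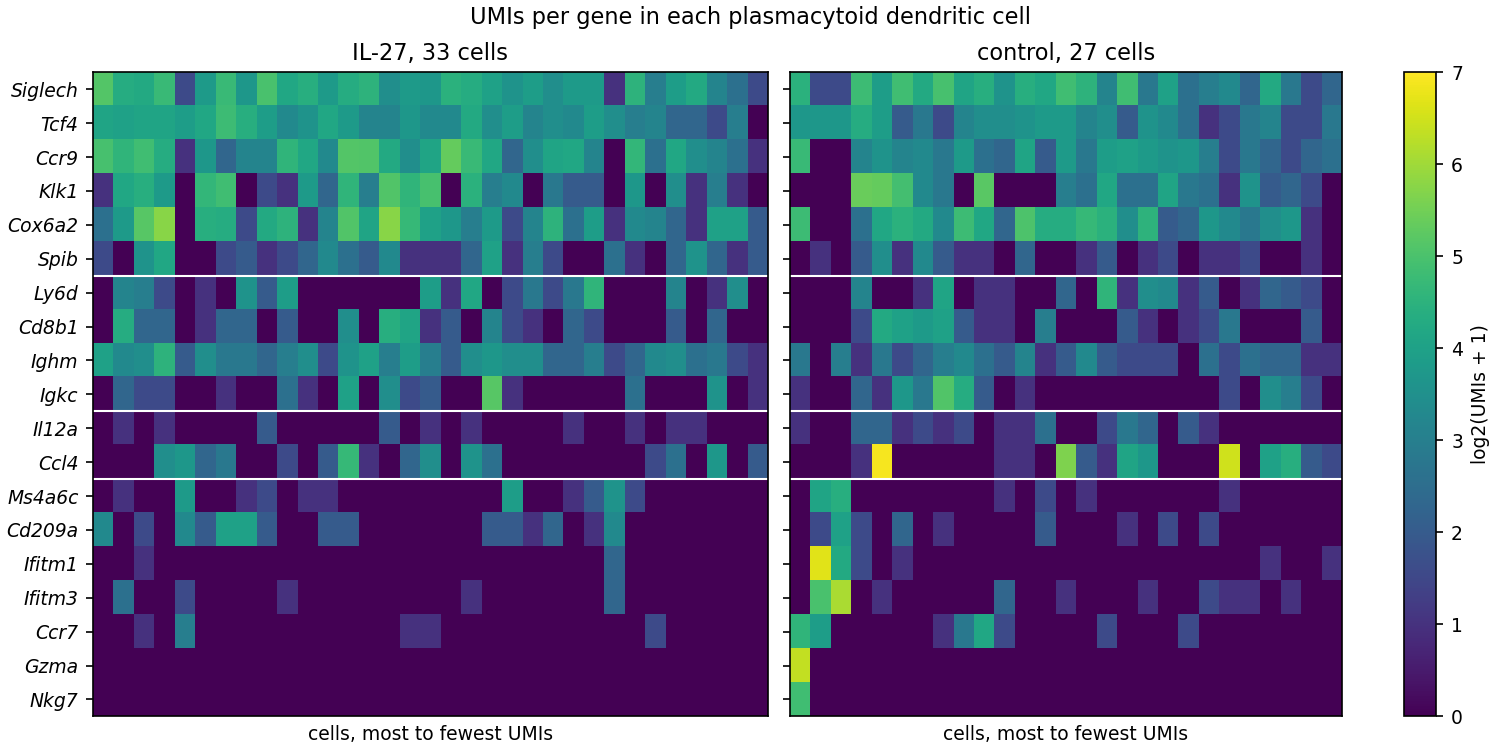
UMIs of 19 genes in each of the 60 pDCs, as log2(UMIs + 1), with cells ordered from most to fewest UMIs (IL-27 left, control right). Siglech, Tcf4 and Cox6a2 fill most columns. Ifitm1 stands in 2 IL-27 and 6 control cells, and Gzma and Nkg7 only in the deepest control cell.

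Promoters of the pDC genes were read from RefSeq (GRCm38.p6) over the 250 bases before each start, because Tcf4 belongs to the E proteins, which bind short E-box sequences. The E-box CAGGTG was searched on both strands, and on the other strand it reads as CACCTG. It occurred in 17.2% of the 32851 promoters in the table. Of the 6 genes of the rule, 4 had a promoter in the table and 3 held the motif. Of the 20 genes that led pDCs over other dendritic cells (below), 10 were in the table, and the motif was in the single promoters of Mctp2 and Paqr5 and in 1 of 5 promoters of Ablim1. The share over the table is per promoter, so it is no yardstick for a gene with several. The windows of the 3 rule genes and of Mctp2 and Paqr5 are shown 5′ to 3′ with the motif in capitals. A match describes the letters and does not show binding.
Siglech (chr7:55767934-55768183, plus strand): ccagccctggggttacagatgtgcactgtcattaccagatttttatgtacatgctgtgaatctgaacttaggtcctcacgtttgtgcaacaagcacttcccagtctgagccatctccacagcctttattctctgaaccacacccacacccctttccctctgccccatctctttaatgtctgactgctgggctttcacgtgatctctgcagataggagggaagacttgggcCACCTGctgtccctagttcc
Klk1 (chr7:44225110-44225359, plus strand): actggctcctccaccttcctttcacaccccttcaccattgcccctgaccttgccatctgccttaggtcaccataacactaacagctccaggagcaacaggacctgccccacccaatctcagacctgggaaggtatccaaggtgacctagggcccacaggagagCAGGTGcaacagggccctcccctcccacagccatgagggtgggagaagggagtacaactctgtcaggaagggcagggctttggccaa
Ccr9 (chr9:123766961-123767210, plus strand): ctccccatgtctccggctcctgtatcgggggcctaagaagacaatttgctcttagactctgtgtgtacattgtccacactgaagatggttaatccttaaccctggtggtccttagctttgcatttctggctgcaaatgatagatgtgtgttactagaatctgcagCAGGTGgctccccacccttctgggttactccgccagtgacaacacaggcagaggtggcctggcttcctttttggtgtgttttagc
Mctp2 (chr7:72306596-72306845, minus strand): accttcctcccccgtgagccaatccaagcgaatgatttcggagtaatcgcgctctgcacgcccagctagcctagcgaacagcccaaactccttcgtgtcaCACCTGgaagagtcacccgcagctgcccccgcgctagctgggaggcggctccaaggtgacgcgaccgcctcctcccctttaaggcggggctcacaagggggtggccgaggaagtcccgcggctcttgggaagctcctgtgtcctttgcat
Paqr5 (chr9:62026791-62027040, minus strand): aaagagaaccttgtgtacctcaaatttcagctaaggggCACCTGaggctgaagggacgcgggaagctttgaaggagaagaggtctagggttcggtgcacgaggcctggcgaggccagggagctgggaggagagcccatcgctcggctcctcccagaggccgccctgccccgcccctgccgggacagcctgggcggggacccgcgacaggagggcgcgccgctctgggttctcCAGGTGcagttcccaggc
The match lies 20 bases before the start in Siglech, 87 in Klk1, 85 in Ccr9 and 150 in Mctp2, and Paqr5 holds 2 matches.

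Against other dendritic cells of the same tumours, pDCs had higher levels of part of the sensing and secretory genes and lower levels of part of the class II presentation genes. The other cells were gated as type 1 (Xcr1, 48 IL-27 and 56 control cells), type 2 (Cd209a, 32 and 21) and mature (Ccr7, 345 and 252), so most were mature cells. Each gate also asked for a further marker, which was Clec9a, Wdfy4, Cadm1 or Naaa for type 1, Flt3, Mgl2 or Clec10a for type 2, and Fscn1, Cacnb3, Ccl22 or Il4i1 for mature cells. Those genes helped to choose the cells compared. Of 9764 genes compared, 1389 (14.2%) were at least 2-fold higher in pDCs in each matrix and 775 (7.94%) at least 2-fold lower. Of 37 measured pDC markers outside the rule, 34 were higher and none lower.

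Klk1, a kallikrein protease, stood at 1061 and 1047 CPM (UMIs per 1000000 UMIs) in IL-27 and control pDCs, and no UMI was found in the other dendritic cells. Cox6a2, a muscle-type subunit of cytochrome c oxidase, stood at 1586 and 1478 CPM against 0.222 and 0.499 CPM. Tcf4 stood at 1250 and 921 CPM against 67.9 and 66.2 CPM. These genes chose the cells, so their height is no finding. Folds in the next paragraphs are pDCs over the other dendritic cells. Outside the rule, Bst2, the surface protein tetherin, was 20.3-fold in the IL-27 matrix and 15.7-fold in the control. Irf8, a factor that type 1 cells also use, was 2.85-fold in the IL-27 matrix and 1.43-fold in the control. Type 1 cells alone stood at 673 CPM of Irf8 with IL-27 and 838 in the control, against 1344 and 693 CPM in pDCs. Control type 1 cells thus had more than control pDCs.

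Several of the 20 leading genes are best known from lymphocytes. Cd8b1, the beta chain of CD8, had 113 and 91 UMIs in IL-27 and control pDCs, against 0 and 1 in the other dendritic cells. Ly6d, a marker of lymphoid progenitors, had 136 and 88 UMIs against 0 and 0. Dntt, the template-free polymerase of antigen receptor rearrangement, had 78 and 60 against 0 and 0. Both genes were thus counted in pDCs alone among the dendritic cells gated here. Cd4 had 129 and 70 UMIs against 1 and 5, and Sla2, an adaptor of lymphocyte receptor signalling, 89 and 65 against 2 and 5. Ly6d was seen in 18 IL-27 and 16 control cells and Cd8b1 in 19 IL-27 and 15 control cells, so neither marked every pDC. Of the T cell receptor genes, Trac had 1 UMI in each matrix and Trbc2 none, and the rule barred Cd3 genes.

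Mctp2, a calcium-binding membrane protein, had 65 and 58 UMIs in IL-27 and control pDCs against 0 and 0 in the other dendritic cells. Atp2a1, a calcium pump best known from fast muscle, had 63 and 44 against 0 and 0. Atp1b1, a subunit of the sodium and potassium pump, had 123 and 90 against 14 and 4. All were picked for a high ratio in each matrix. Lefty1, a secreted antagonist of Nodal signalling, had 91 and 51 against 0 and 7, and Lair1, an inhibitory collagen receptor, 195 and 125 against 21 and 23. The other leading genes were Tlr7, Mzb1, Klk1b27, Smim5, D13Ertd608e, Gfra3, Paqr5, Klra17, Sh3bgr and Ablim1. Klk1b27 and Klra17 belong to families of near-identical genes, so their counts are uncertain.

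**Figure D2:**
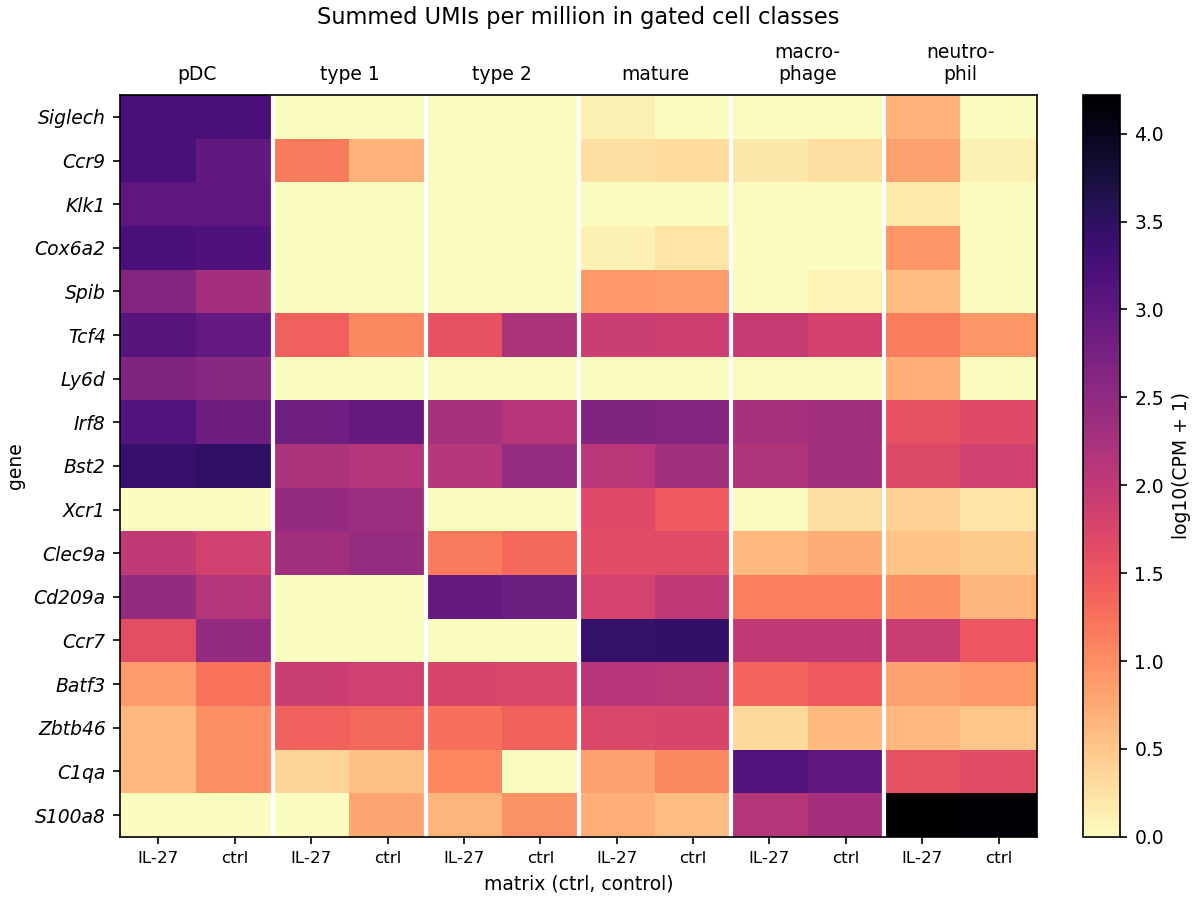
CPM of 17 genes in gated classes of each matrix, as log10(CPM + 1), with IL-27 left of control in each pair. Siglech, its partner genes and Ly6d are highest in pDCs of both matrices. C1qa and S100a8, which the rule limits, are highest in macrophages and neutrophils. Ccr7 was 39.9 CPM in IL-27 and 282.9 CPM in control pDCs, against 2767 and 2793 CPM in mature cells.

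Most genes of conventional dendritic cells given here were lower in pDCs, with Clec10a and Cadm1 as exceptions. Id2 stood at 83.1 and 33.8 CPM in IL-27 and control pDCs against 1026 and 895 CPM in the other dendritic cells, and Batf3, a factor of type 1 cells, at 6.65 and 16.9 against 114 and 102 CPM. Of 9 measured type 2 markers 4 were lower in pDCs in both matrices and 1 higher. Clec10a, a lectin of type 2 cells and the higher one, stood at 296 and 359 CPM in IL-27 and control pDCs, against 465 and 282 CPM in type 2 and 87.6 and 127 CPM in mature cells. Cadm1, an adhesion molecule of type 1 cells, stood at 143 and 165 CPM, against 118 and 144 CPM in type 1 cells. The listed type 1 genes outside the gate all stood lower in pDCs than in type 1 cells. Among them, Itgae stood at 6.65 and 0 CPM in IL-27 and control pDCs against 795 and 845 CPM. Ifi205 stood at 3.33 and 4.22 against 294 and 258 CPM. The gates used 5 genes each of the type 1 and mature lists, so no count is read from those, and 3 of the type 2 list. The 2 classes of antigen-presenting molecules parted. Of 13 class II genes 7 were lower and none higher, and H2-Aa was 0.390-fold in the IL-27 matrix and 0.407-fold in the control. Of 17 class I genes 7 were higher and 1 lower, and H2-K1 was 2.24-fold in the IL-27 matrix and 2.49-fold in the control. Of 20 glycolysis and hypoxia genes 12 were lower and none higher.

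Of 24 nucleic acid sensing genes 10 were higher and 2 lower. Tlr7, the receptor for single-stranded RNA, stood at 166 and 109.8 CPM in IL-27 and control pDCs against 0.222 and 0.499 CPM. Tlr9, the receptor for CpG DNA, was 9.59-fold in the IL-27 matrix and 12.4-fold in the control. Pld4, an exonuclease of endosomal nucleic acid, was 13.2-fold in the IL-27 matrix and 9.01-fold in the control. Unc93b1, which carries these receptors to the endosome, was 3.15-fold in the IL-27 matrix and 3.26-fold in the control. Type 1 cells were closer, at 450 and 444 CPM of Unc93b1 against 658 and 832 CPM in pDCs. Of 30 secretory pathway genes 10 were higher and none lower, among them Xbp1, a factor of the unfolded protein response, at 3.37-fold in the IL-27 matrix and 2.48-fold in the control. Type 2 cells alone were closer, at 277 CPM of Xbp1 with IL-27 and 317 in the control, against 515 and 528 CPM in pDCs. Of 17 homing receptors 9 were higher and 3 lower.

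The pDCs also carried antibody constant-region transcripts. All antibody genes together stood at 1882 CPM in IL-27 and 1503 CPM in control pDCs, against 25.9 and 22.6 CPM in neutrophils and at most 15.4 CPM in another dendritic class. Ighm, the mu heavy chain, was seen in 33 of 33 IL-27 and 25 of 27 control pDCs, with 257 and 102 UMIs. Thinned to 1000 UMIs, it was seen in 16 of 32 IL-27 and 10 of 27 control pDCs, against 1.23% and 1.56% of neutrophils. Igkc, the kappa light chain, was in fewer cells, with 98 UMIs in 15 IL-27 cells and 101 in 13 control cells. Iglc3 had 121 and 101 UMIs and Iglc2 75 and 40, and since these lambda genes are near-identical, their split is uncertain. Jchain, which joins secreted antibody, had 3 UMIs with IL-27 and 0 in the control. Of 14 B cell markers 10 had no UMI in any pDC, among them Ms4a1, Cd79a and Pax5, and the list summed to 43.2 CPM with IL-27 and 76.0 in the control.

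The share of pDCs differed between the matrices by less than the counting error. They made up 0.330% (exact Clopper-Pearson interval 0.227% to 0.464%) of IL-27 cells and 0.254% (0.168% to 0.370%) of control cells, a ratio of 1.30 (0.757 to 2.25). Among gated dendritic cells they were 7.21% of 458 with IL-27 and 7.58% of 356 in the control, a ratio of 0.950 (0.554 to 1.64). Bead selection can set these shares.

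Between IL-27 and control pDCs, immediate-early and heat shock genes were lower with IL-27, while the sums of pDC markers had a ratio of 1.00. Of 11413 genes with a UMI, 2995 had at least 30 UMIs over both matrices and are called measured. At a ratio of at least 1.5 either way, 433 (14.5%) were higher and 371 (12.4%) lower with IL-27, so a list with about these shares does not stand out. Without the members set apart, 361 of 2594 were higher and 326 lower.

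**Figure D3:**
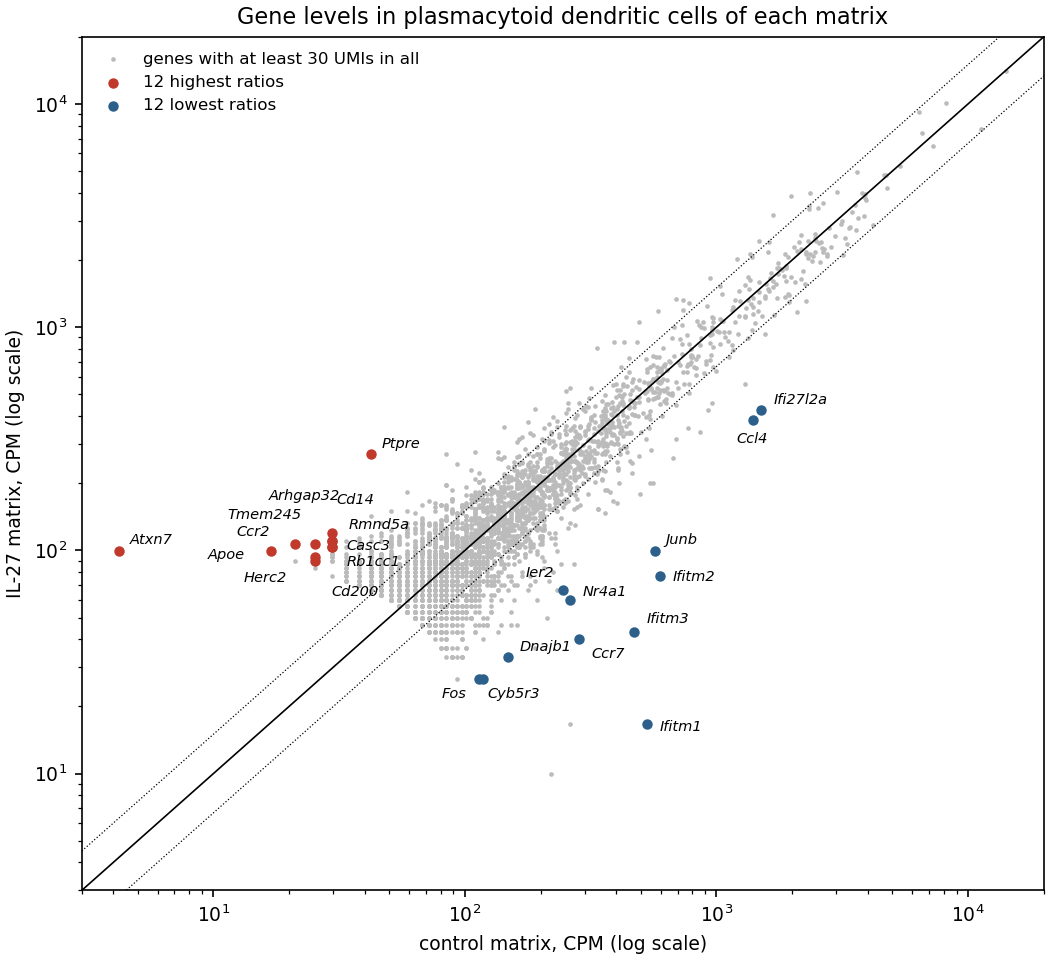
CPM of measured genes in IL-27 pDCs (vertical) and control pDCs (horizontal), both on log scales, with the line of equality, dotted lines at a ratio of 1.5, and the 12 highest and 12 lowest ratios named; 4 genes with no UMI in 1 matrix cannot be drawn. Most points lie between the dotted lines, and the Ifitm genes, Junb, Ccl4 and Ifi27l2a lie below them.

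The 38 pDC markers outside the rule summed to 19229 CPM in IL-27 and 19138 CPM in control pDCs, a ratio of 1.00 (0.966 to 1.04). Of the 36 measured, 5 were higher and 2 lower. Irf8, a factor of dendritic cell development, had 404 UMIs in IL-27 pDCs and 164 in control pDCs, a ratio of 1.94 (1.61 to 2.34), against 0.972 in the other dendritic cells. One control cell held 60 of its control UMIs. Without the members set apart the log2 ratio of Irf8 was 1.27, against 0.96 with them. Spib, an Ets-family factor of pDCs used by the rule, had 129 and 45 UMIs, a ratio of 2.26 (1.60 to 3.24). Ccr9, the receptor for the chemokine Ccl25 and also in the rule, had 0 to 40 UMIs per cell (median 16) with IL-27 and 0 to 26 (median 7) in the control. The cells thus overlapped, and its ratio was 1.77 (1.51 to 2.08), against 1.77 in all other cells. In other dendritic cells it was 1.93, which rests on few UMIs. There Ccr9 stood at 13.6 CPM with IL-27 and 3.85 in the control in type 1 cells, and at 0.862 and 1.01 CPM in mature cells.

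Ptprs, a receptor phosphatase of pDCs, had 95 UMIs in IL-27 pDCs and 39 in control pDCs and a ratio of 1.92 (1.31 to 2.86). Rpgrip1 and Cd209d were also among the higher markers, with ratios of 3.09 (1.70 to 6.02) and 1.63 (1.17 to 2.29). Cd7, an immunoglobulin-family receptor, and Sh3bgr were the lower ones. Cd7 had 78 and 159 UMIs and a ratio of 0.386 (0.291 to 0.510), against 0.166 in other dendritic cells. Among the genes of the rule, Tcf4 had a ratio of 1.36 (1.15 to 1.61) and Siglech one of 1.01 (0.887 to 1.16).

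Immediate-early and heat shock genes are switched on within minutes of stimulation or handling. Of 17 measured, 13 were lower with IL-27 and none higher, with a median log2 ratio of -1.08. Without the members set apart 12 of 17 were lower. The list summed to 3252 CPM in IL-27 and 6659 CPM in control pDCs, a ratio of 0.488 (0.450 to 0.529). Per cell it took 0% to 0.752% of UMIs (median 0.293%) with IL-27 and 0.212% to 1.42% (median 0.604%) in the control. Only 1 of 33 IL-27 cells lay above the control median and 1 of 27 control cells below the IL-27 median, though the ranges overlapped.

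Junb, a subunit of the AP-1 factor, had 30 UMIs in IL-27 pDCs and 135 in control pDCs, a ratio of 0.175 (0.114 to 0.261). The AP-1 subunits Jund, Jun and Fos had ratios of 0.430, 0.408 and 0.233. Zfp36, which destabilises cytokine mRNA, stood at 456 and 963 CPM (ratio 0.473). Nr4a1, a nuclear receptor induced by stimulation, had 18 and 62 UMIs (ratio 0.229), and Ier2, an immediate-early gene, 20 and 58 (ratio 0.272). Among chaperone genes, Dnajb1 (0.225) and Hspa8 (0.456) were lower, whereas Hsp90aa1 (0.921) and Hspe1 (1.09) were near 1. In the other dendritic cells the same list had a median log2 ratio of -0.38, and in all other cells -0.39. The part of tissue handling was not tested.

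**Figure D4:**
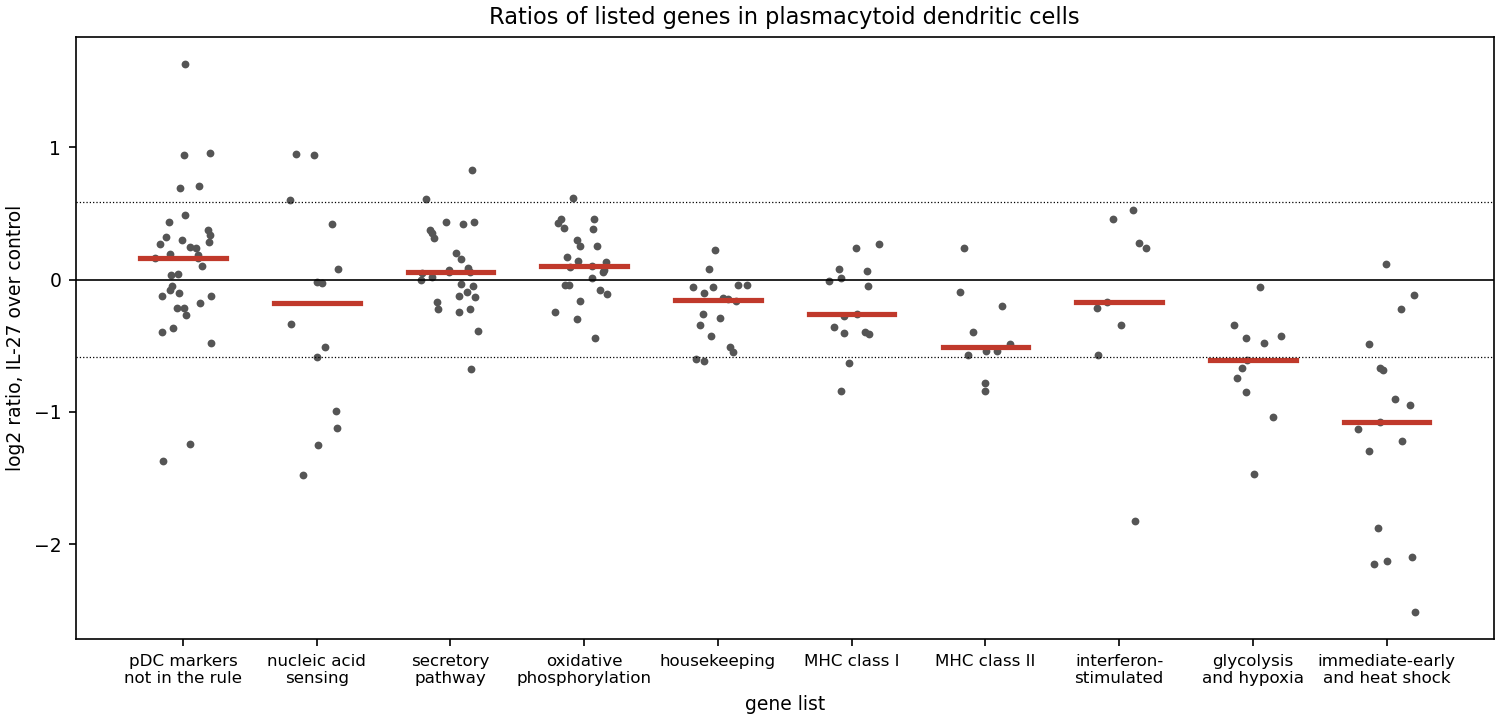
Log2 ratio (IL-27 over control) of each measured gene in 10 lists, with the median of each list as a red bar and dotted lines at a ratio of 1.5. The immediate-early and heat shock list has a median of -1.08, and glycolysis one of -0.61.

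Of 14 measured sensing genes 3 were higher and 5 lower with IL-27. Tlr7 had 50 UMIs in IL-27 pDCs and 26 in control pDCs, a ratio of 1.51 (0.925 to 2.53) whose interval includes 1. Tlr9 had 16 and 30 UMIs, a ratio of 0.420 (0.214 to 0.795). Irf7, the factor that drives interferon alpha genes, had 26 and 57 UMIs, a ratio of 0.359 (0.217 to 0.581). Irf7 was also lower in other dendritic cells (0.616) and in all other cells (0.501). Irf5, which acts with Toll-like receptors on cytokine genes, had 28 and 48 UMIs, a ratio of 0.459 (0.278 to 0.747). Pld4 (1.06) and Unc93b1 (0.792) stayed within the limit.

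Of 20 type I and type III interferon genes 19 had no UMI in any pDC. Ifnl2, an interferon lambda, had 3 UMIs in IL-27 pDCs and 0 in control pDCs, where a count of 0 allows up to 12.7 CPM, and its near-identical relative Ifnl3 makes the assignment uncertain. Interferon-stimulated genes summed to 4084 CPM in IL-27 and 5768 CPM in control pDCs, a ratio of 0.708 (0.655 to 0.765), but 1 of 9 measured was lower and none higher. That gene was Ifi27l2a, with 128 and 357 UMIs and a ratio of 0.282 (0.229 to 0.346). Its ratio was 0.508 in other dendritic cells and 0.591 in all other cells. Bst2 (0.864), Stat2 (1.37) and Sp100 (1.44) stayed within the limit. Most of the sum was Bst2, also on the pDC marker list, at 2567 CPM in IL-27 and 2973 CPM in control pDCs. Ifi27l2a stood at 426 and 1508 CPM. With at least 10 UMIs in place of 30, 8 of 22 interferon-stimulated genes were lower and 2 higher. Of all 6209 genes at that limit, 1056 were lower and 1234 higher.

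**Figure D5:**
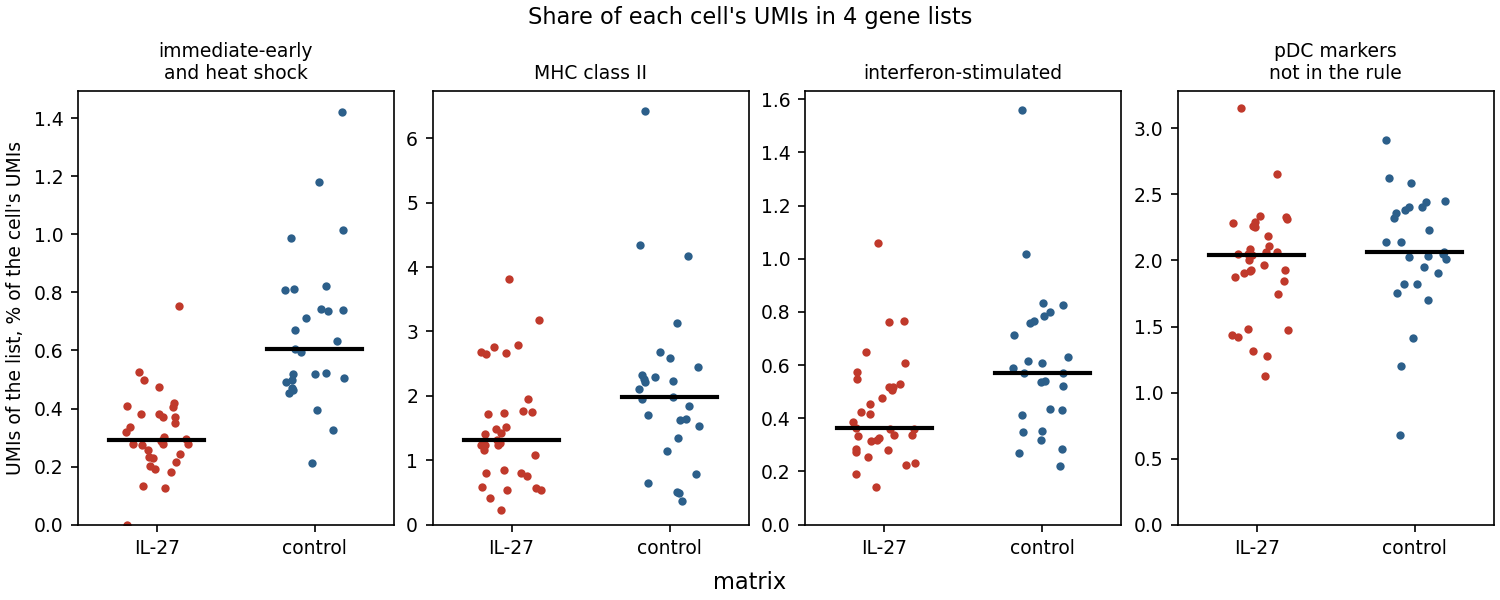
Share of each pDC's UMIs in 4 gene lists, 1 point per cell and a black bar at the median, IL-27 left and control right. The immediate-early and heat shock share has medians of 0.293% and 0.604%, and the pDC marker share 2.04% and 2.06%.

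Class II genes summed to 14836 CPM in IL-27 and 21380 CPM in control pDCs, a ratio of 0.694 (0.666 to 0.723), and 2 of 10 measured were lower, with a median log2 ratio of -0.51. Cd74, the invariant chain, stood at 7755 and 11296 CPM in IL-27 and control pDCs (ratio 0.687). H2-Eb1, a class II beta chain and one of the 2 lower genes, had 351 and 496 UMIs and a ratio of 0.557 (0.485 to 0.640). Few cells decide the size. With at least 3 Siglech UMIs per member none of 10 was lower and the median was -0.08, and without the member with NK genes 6 were lower. Other dendritic cells had a median of -0.43. Of 15 measured class I genes 2 were lower and none higher, with a median of -0.26.

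Of 21 cytokine and effector genes 3 were measured and 2 of these were lower. Ccl4, a chemokine that attracts leukocytes, had 115 UMIs in IL-27 pDCs and 331 in control pDCs, a ratio of 0.274 (0.219 to 0.339). The highest 3 cells held 49 of these UMIs with IL-27 and 256 in the control, where 1 cell held 118. Without the members set apart its log2 ratio was -2.35, against -1.87 with them. Il12a, the p35 subunit of IL-12, had 14 and 38 UMIs in 10 IL-27 and 15 control cells, a ratio of 0.290 (0.145 to 0.548). Tgfb1 had a ratio of 0.833 (0.656 to 1.06). Il6, Il10 and Il12b had no UMI in either matrix.

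Of 14 measured homing receptors 4 were higher and 2 lower. Ccr2, the receptor of monocyte recruitment, had 32 and 5 UMIs in 9 IL-27 and 5 control cells, a ratio of 5.04 (1.95 to 16.6). Ccr7, which guides cells to lymph nodes, had 12 and 67 UMIs in 5 IL-27 and 8 control cells, a ratio of 0.141 (0.0694 to 0.263), and the member with NK genes held 23 of the control UMIs. Its log2 ratio was -3.22 without the members set apart and -2.83 with them. Itga4, an integrin chain, had a ratio of 0.603 (0.457 to 0.795), and Cxcr4 one of 0.963 (0.662 to 1.41).

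The Ifitm genes, whose products restrict virus entry, had the lowest ratios of the named genes, and these rest on few cells. Ifitm1 had 5 UMIs in IL-27 pDCs and 125 in control pDCs, and 1 control cell held 102 of them. Ifitm3 had 13 and 111 UMIs and Ifitm2 23 and 141. In members with over 2 Siglech UMIs, Ifitm1 had 1 UMI with IL-27 and 5 in the control, too few for a ratio. Ifitm3 had 7 and 12 and Ifitm2 18 and 43. Without the members set apart the log2 ratios of Ifitm3 and Ifitm2 were -1.41 and -1.89, against -3.44 and -2.96 with them. These genes are closely related, so reads may be split among them.

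Of 8 measured genes of IL-27 signalling 1 was lower with IL-27 and none higher. Il27ra, the IL-27 receptor, had 2 UMIs in IL-27 pDCs and 3 in control pDCs, too few to compare, and Il6st, its partner chain, 18 and 13. Stat3 had 137 and 149 UMIs, a ratio of 0.724 (0.570 to 0.919), against 1.24 in other dendritic cells. Socs3, a feedback inhibitor of cytokine signalling, was the lower gene, with 75 and 95 UMIs, a ratio of 0.622 (0.453 to 0.851), against 0.573 in other dendritic cells.

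Of 11 measured glycolysis and hypoxia genes 6 were lower with IL-27 and none higher, with a median log2 ratio of -0.61, against -0.55 in other dendritic cells. Eno1, a glycolytic enzyme, had 54 and 118 UMIs, a ratio of 0.360 (0.256 to 0.501). Without the members set apart 2 were lower. With each cell weighted equally 2 were lower and 1 higher, with a median of -0.30. Medians were 0.10 for oxidative phosphorylation, 0.06 for secretory genes and -0.16 for housekeeping genes. The housekeeping list summed to a ratio of 0.811 (0.783 to 0.839), with 2 of 18 measured lower and none higher. A summed interval that leaves out 1 was thus also found for housekeeping genes. Hsp90b1, the endoplasmic reticulum chaperone of Toll-like receptors, had a ratio of 1.34 (1.14 to 1.57). Ighm, described above, had a ratio of 1.98 (1.57 to 2.52) and Iglc3 one of 0.943 (0.718 to 1.24).

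The 12 highest ratios of the named genes rest on 27 to 81 UMIs with IL-27. Ptpre, a receptor-type tyrosine phosphatase, had 81 and 10 UMIs in 24 IL-27 and 8 control cells, a ratio of 6.38 (3.30 to 13.8), against 1.10 in other dendritic cells. Atxn7, a subunit of the SAGA coactivator, had 30 and 1 UMIs, a ratio of 23.6 (3.93 to 964). Apoe, a lipid carrier abundant in macrophages, had 30 and 4, a ratio of 5.91 (2.08 to 23.1). Cd14, a coreceptor of monocytes and macrophages, had 36 and 7, and 1 IL-27 cell held 24 of them. Apoe and Cd14 are 2 of 15 listed macrophage markers, of which 4 (Adgre1, Fcgr1, Mertk and Trem2) had no UMI in any pDC. Another 4 were measured, with 2 higher and none lower with IL-27 and a median log2 ratio of 0.98. The 15 summed to 728 CPM with IL-27 and 655 in the control, a ratio of 1.11 (0.902 to 1.38). Cd200, an inhibitory ligand, had 27 and 6 UMIs, a ratio of 3.54 (1.43 to 10.5), against 2.17 in all other cells. Tmem245, Arhgap32, Rmnd5a, Herc2, Casc3 and Rb1cc1 had ratios of 3.49 to 4.20. In the fifth of genes with the longest transcripts the median log2 ratio was 0.14 in pDCs and 0.15 in all other cells, and its part in these ratios was not tested. Among the lowest ratios, Cyb5r3, a cytochrome b5 reductase, had 8 and 28 UMIs, a ratio of 0.225 (0.0886 to 0.507).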

How the data were processed

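The authors deposited raw UMI counts, 1 matrix per group, produced with Cell Ranger 4.0.0 according to the headers of the files. The submitters' processing notes also list Seurat 3.2.0 and mm10. Which cells the authors filtered is not given in the labels. The pDC members, the 36 gene lists and the comparisons were chosen with earlier results of these data known.

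Counts of the members were summed per matrix and divided by their total (CPM). Shares have exact Clopper-Pearson intervals and ratios exact conditional binomial ones, at 95%, with a floor of 3 counts. Genes with at least 30 UMIs were read at 1.5-fold between matrices, and at 2-fold in both matrices against other dendritic cells. For the latter, the UMIs of the other dendritic cells counted towards the 30. Named genes were the 12 highest and 12 lowest ratios among genes seen in at least 20% of members of the higher matrix, and the 20 leading pDC genes with at least 20 UMIs per matrix. Mitochondrial, ribosomal, antibody, hemoglobin, unnamed (Gm, Rik) and rule genes were left out of both. Scrublet (scanpy 1.11.5, expected rate 8%) called 167 IL-27 and 0 control cells, and none were removed. The code was tested on simulated data that held counting error only. Some genes of the lists are not reported here by name. Tasl, Sting1, Mb21d1, Mx2 and Marchf1 had no match. Python 3.11.15, numpy 2.4.6 and scipy 1.17.1 were used.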

Additional observations from a re-analysis of the deposited data

How the results depend on the processing

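No paired analysis was possible because each group is 1 matrix with no map from cells to entries, and no entry could be left out in turn. The ratio of pDC shares lay between 1.10 and 1.66 over 12 alternatives, each with an interval that includes 1. Among these alternatives, leaving out antibody-rich or B cell members removed no cell and so could not change the ratio. With at least 10 UMIs in place of 30, 1234 genes were higher and 1056 lower of 6209 measured, and with at least 60, 138 and 146 of 1527. With members thinned to 1000 UMIs, 32 were higher and 36 lower of 295, and 213 genes were lower than in other dendritic cells. The summed log2 ratio of immediate-early and heat shock genes was then -1.48, with 1 measured gene and 1 lower, and that of pDC markers outside the rule -0.057. That of class II genes was -0.53 in the report, -0.45 with no UMI of barred genes, -0.33 with at least 2 further markers, -0.25 with at least 3 Siglech UMIs, -0.64 without the member with NK genes and -0.37 with both. Interferon-stimulated genes gave -0.37 with no UMI of barred genes. Without the 8% highest doublet scores, pDC markers gave 0.077, immediate-early and heat shock genes -1.21, class I genes -0.15 and glycolysis genes -0.75. With at least 3 Siglech UMIs, pDC markers gave -0.075 and class I genes -0.30, and without the member with NK genes as well -0.13, -0.32 and, for glycolysis genes, -0.46. Weighting cells equally gave -0.066 for pDC markers. The settings on 3 Siglech UMIs and the member with NK genes were chosen after seeing the data.

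For 91 genes, 1255 of 1344 values under the alternatives stayed the same, 83 moved and 6 reversed. Part of the values that stayed the same could not change. Settings that only shifted the UMI limit for measured genes leave a gene's ratio as it is. Leaving out antibody-rich or B cell members removed no cell. A value also counted as the same when it lay within the gene's own counting interval, which is wide for genes with few UMIs. The count of 1255 is therefore no measure of how stable the ratios are. With at least 3 Siglech UMIs Bcl2a1b had a log2 ratio of 2.23 and Bcl2a1d of 0.75, and with the member with NK genes left out too Bcl2a1b had 2.06. After thinning, Cd200 had -0.25, Casc3 -1.25 and Pmaip1 0.018. The cause of these changes was not tested. Depth and 1 matrix per group are the main limits: receptors and cytokines have few UMIs in 60 cells, and the spread between tumours is unknown.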
